A study of Capra hircus with 9 samples.

Results

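The mature miRNAs of the submandibular gland were compared between adult goats of 24 months and of 12 months. All 2189 miRNA entries of the deposited count table belong to the comparison, which is every entry measured in the series, and 6 of its 9 libraries were used. The 12-month group held 3 healthy female Lubo goats, named here 12-month 3, 4 and 5 after their labels, and the 24-month group held 3 others, named 24-month 2, 3 and 5. All were untreated, were kept under like conditions with natural light and unrestricted feed, and gave 1 library each from TRIzol-extracted RNA of whole gland tissue. A further group of 3 goats of 1 month enters only where it is named. Every sample is a female animal of 1 breed, so the comparison covers no male goats and no other breed.

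The submandibular gland is a paired salivary gland whose acinar cells secrete water, enzymes and mucins and whose ducts modify the saliva. A miRNA is a short RNA that guides Argonaute proteins to messenger RNAs, mostly through its seed, bases 2 to 8 from the 5′ end, and lowers their translation and stability. Mature miRNAs are long-lived, and a few families tend to make up most of the miRNA of a differentiated tissue. Secretory epithelium is known for miR-148a, miR-375 and the miR-200 family, and let-7 is known for being high in differentiated adult cells.

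The sequences of the miRNAs that carried the comparison are given below as the deposited table lists them, 5′ to 3′ with T for U and with the seed in capitals. The let-7 family is shown because its members stood among the smallest p-values and because neighbours in it differ by so few bases.

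chi-let-7a-5p: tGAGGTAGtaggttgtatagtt
chi-let-7b-5p: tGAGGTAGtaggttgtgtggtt
chi-let-7c-5p: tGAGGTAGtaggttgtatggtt
chi-let-7f-5p: tGAGGTAGtagattgtatagtt
chi-let-7g-5p: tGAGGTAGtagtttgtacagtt
chi-let-7i-5p: tGAGGTAGtagtttgtgctgtt

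All of them share 1 seed. Counted from 1 at the 5′ end and with let-7a as the reference, let-7f differed by G12A, let-7c by A19G, let-7b by A17G and A19G, and let-7g by G12T and T18C. Reads of such close relatives can be assigned to one another in counting, so a level of 1 member is less certain than the sum over the seed. Some of the most abundant miRNAs of the adult gland are shown next, with the less abundant chi-miR-148b-3p beside chi-miR-148a-3p. The miR-148 pair and the miR-200a and miR-141 pair each share a seed.

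chi-miR-148a-3p: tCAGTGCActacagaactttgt
chi-miR-148b-3p: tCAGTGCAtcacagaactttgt
chi-miR-200a: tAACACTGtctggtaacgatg
chi-miR-141: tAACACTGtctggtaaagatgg
chi-miR-26a-5p: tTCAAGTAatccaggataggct
chi-miR-27b-3p: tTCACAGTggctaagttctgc
chi-miR-99a-5p: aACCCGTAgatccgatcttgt
chi-miR-125b-5p: tCCCTGAGaccctaacttgt

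Of the 2189 entries, 418 have a goat name with the prefix chi-, and 1292 have a family name from elsewhere with an ending such as -x or -y. The last 479 are candidates that lack any family name. The 6 adult libraries held 8288492 to 12064729 counts. A filter on low counts left 810 entries, of which 331 were goat-named, 373 had other names and the rest were candidates, and these held 99.96 to 99.98% of the counts of each adult library. The other 1379 entries were not tested. Between 1146 and 1348 entries had at least 1 count in an adult library, 880 had one in all 6, and 383 had none in any of the 6. Levels are in CPM, read counts per 1000000 of a library, scaled by TMM, a library scaling factor, unless called unscaled, and errors of means are standard deviations over 3 goats.

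The leading miRNAs were largely shared by the adult goats. 7 entries were among the 10 most abundant of all 6 libraries: chi-miR-148a-3p, chi-miR-26a-5p, chi-miR-27b-3p, chi-miR-143-3p, chi-let-7a-5p, chi-miR-99a-5p and chi-miR-200a. The 10 leading entries of each library took 53.2 ± 2.52% of its counts at 12 months and 53.8 ± 1.21% at 24 months (n = 3 each; exact permutation p = 0.7, two-sided). In single goats of 12 months this share was 52.6, 51.0 and 55.9%, and in those of 24 months it was 53.7, 52.6 and 55.0%, so the ages overlapped.

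No miRNA entry passed the test between the ages. edgeR called 0 of 810 entries (0%) at an adjusted p under 0.05, with a smallest adjusted p of 0.332, limma voom called 0, and DESeq2 called 2 of 805 (0.248%), both described further on. At an unadjusted p under 0.05, edgeR gave 47 entries (5.8%), 32 higher (3.95%) and 15 lower (1.85%) at 24 months, limma voom gave 43 and DESeq2 gave 56. The levels of 90 entries (11.1%) did not overlap between the ages, 65 higher and 25 lower at 24 months. Candidates without a family name made up 14 of the 32 higher entries at that p and 22 of these 65. They made up 0 of the lower entries in either count. The 810 tested entries held 746 distinct sequences, so some sequences were tested under more than 1 name. Over all 2189 entries, 218 shared 62 sequences, and up to 11 had the same sequence and the same counts. The numbers of higher and lower entries can therefore count 1 sequence more than once. The median log2 fold change over all 810 entries was 0.01, and the median absolute log2 fold change was 0.28.

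A missed threshold does not show that levels were equal, so the 95% interval of each fold change was read as well. For 324 of 810 entries (40%) the whole interval lay within 2-fold either way, and these entries held 88.5% of adult counts. The share of entries was 10.99% in a fit of all 9 libraries, and between 24.7% (without 12-month 5) and 30.9% (without 24-month 3) when any 1 adult library was left out. It was 25.3% without 12-month 4. The share grew with abundance. It was 15.6% among the 366 entries under 10 CPM, 46.5% among the 228 at 10 to 100 CPM, 64.8% among the 122 at 100 to 1000 CPM, 87.3% among the 71 at 1000 to 10000 CPM, and 87.0% among the 23 above that. Estimated changes reached 2-fold in 65 entries, 41 of them under 10 CPM and 0 of them above 1000 CPM. For most rare entries 3 goats per age therefore left changes of 2-fold within the interval.

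**Figure D1:**
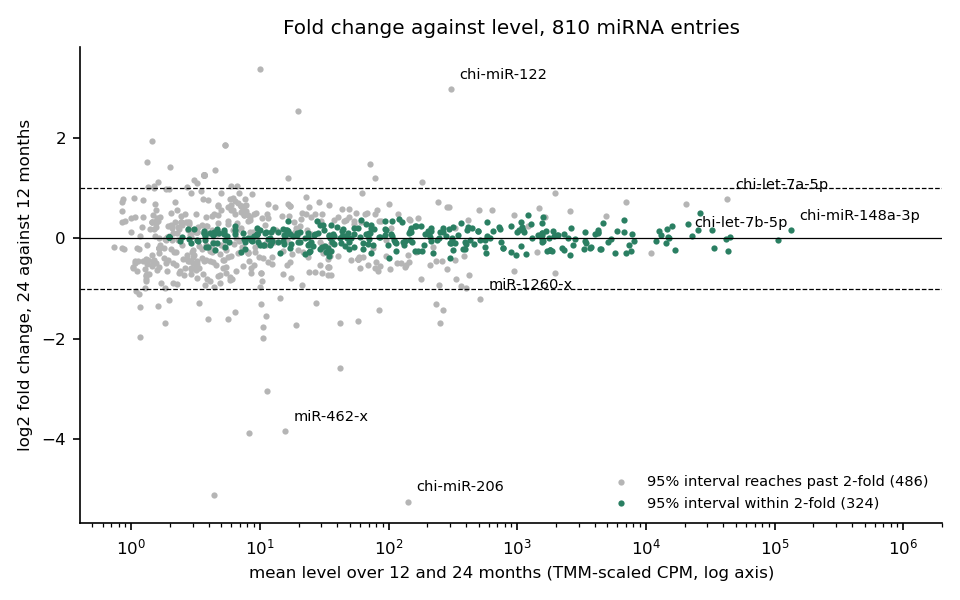
Log2 fold change of each of the 810 tested entries (24 against 12 months, y axis) against its mean level (TMM-scaled CPM, log x axis), with dashed lines at 2-fold. Green points are the 324 entries whose 95% interval lies within 2-fold, and they spread along the zero line mostly at higher levels, while the widest estimates include chi-miR-206, high in 12-month 4 alone, and chi-miR-122, highest in 24-month 3.

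chi-miR-148a-3p, the leading miRNA of the adult gland and one rich in secretory epithelium, stood at 118902, 128145 and 133919 CPM at 12 months and at 141200, 141341 and 143548 CPM at 24 months. The ages did not overlap, but the log2 difference was only 0.16 (SE 0.14; edgeR adjusted p = 0.881), with a 95% interval from -0.16 to 0.48. chi-miR-200a, which maintains the epithelial state by repressing ZEB1 and ZEB2, was the most even of the abundant miRNAs. It stood at 30479, 30974 and 31218 CPM at 12 months and at 35014, 35088 and 34090 CPM at 24 months, with a log2 difference of 0.17 (SE 0.14; edgeR adjusted p = 0.881). Both differences were small beside the 2-fold bound and close to their standard errors. The standard deviation of log2 CPM at 12 and 24 months was 0.09 and 0.01 for chi-miR-148a-3p, and 0.02 and 0.02 for chi-miR-200a.

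chi-miR-26a-5p, a broadly expressed brake on the cell cycle, stood at 118758, 82522 and 120008 CPM at 12 months and at 115515, 88765 and 110386 CPM at 24 months. Its log2 difference was -0.03 with a 95% interval from -0.49 to 0.43. Each age had 1 low goat, 12-month 4 and 24-month 3. chi-miR-99a-5p and chi-miR-27b-3p gave log2 differences of -0.01 and 0.03, and chi-miR-125b-5p, chi-miR-143-3p and chi-miR-141 gave -0.20, -0.26 and 0.16. All of these intervals lay within 2-fold.

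The smallest p-value of all entries belonged to chi-let-7b-5p. It stood at 15537, 16645 and 15301 CPM at 12 months and at 22465, 26801 and 26524 CPM at 24 months. The ages did not overlap, and every 24-month goat stood above every 12-month goat. The log2 difference was 0.67 (SE 0.16), with unadjusted p = 0.00265 and an edgeR adjusted p of 0.332 that did not pass the threshold.

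chi-let-7a-5p stood at 29371, 33731 and 31901 CPM at 12 months and at 41283, 45779 and 75126 CPM at 24 months. The ages did not overlap, with 24-month 5 far above the other goats. The log2 difference was 0.77 (SE 0.24; edgeR adjusted p = 0.483), and it was 0.46 without 24-month 5. chi-let-7g-5p stood at 5316, 4795 and 5820 CPM at 12 months and at 6338, 5395 and 14554 CPM at 24 months, so 1 goat carried its log2 difference of 0.72, which was 0.15 without 24-month 5. chi-let-7f-5p gave 0.28 with overlapping ages, and chi-let-7i-5p, at 2800, 1995 and 2672 CPM against 2397, 2051 and 3077 CPM, gave 0.01.

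The let-7 list, with miR-98, held 23 tested entries. None was called, 4 had an unadjusted p under 0.05, all higher at 24 months, 18 of 23 had a log2 fold change above 0 and the list's median was 0.28, against 0.01 over all entries. Its forms miR-98-x and let-7-x gave 1.47 and 0.90, and chi-let-7a-3p, with overlapping ages, gave 1.11. Each was highest in 12-month 4, 24-month 3 and 24-month 5, a split across the ages described further on. With that split as a covariate chi-let-7a-3p gave 0.69. The whole let-7 list's share of unscaled counts was 7.70, 8.96 and 8.41% at 12 months and 10.4, 10.5 and 14.7% at 24 months, without overlap. The means were 8.36 ± 0.629 and 11.9 ± 2.43% (exact permutation p = 0.1, two-sided, the smallest that 3 against 3 can give; adjusted p = 0.357 over 25 such values). Summed over the 18 entries with the let-7 seed, the level was 78706, 77735 and 81865 CPM at 12 months and 96580.1, 110411 and 164623 CPM at 24 months, a log2 difference of 0.64 (unadjusted p = 0.0147; edgeR adjusted p = 0.921).

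**Figure D2:**
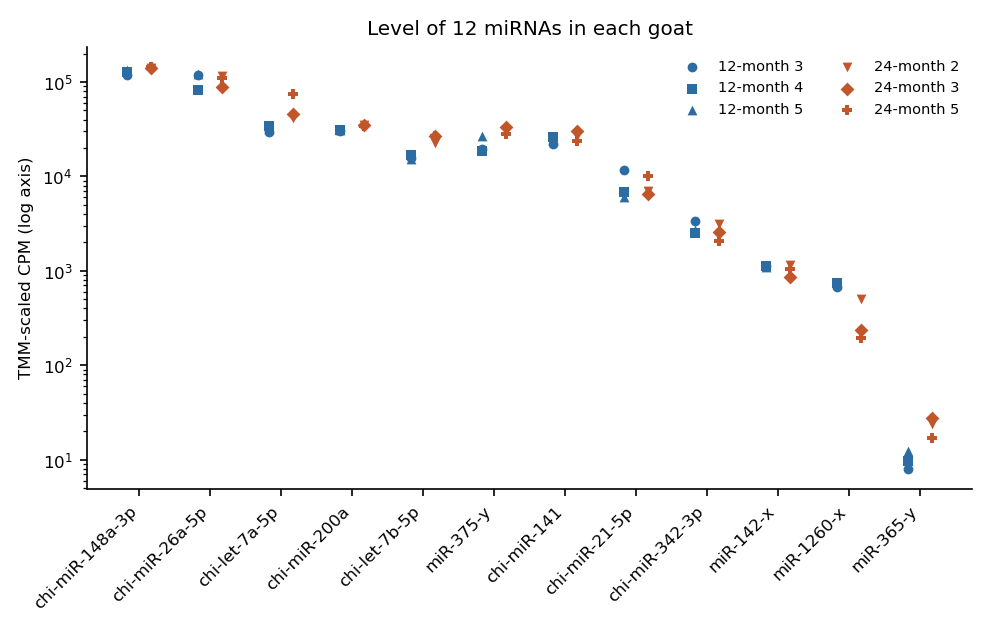
TMM-scaled CPM (log y axis) of 12 miRNAs in each goat, blue for 12 months and orange for 24 months, with 1 marker shape per goat. chi-miR-148a-3p and chi-miR-200a lie tightly together, chi-let-7a-5p and chi-let-7b-5p are separated by age with 24-month 5 highest in chi-let-7a-5p, and miR-1260-x spreads among the 24-month goats.

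Among the gland miRNAs, 10 of 11 tested entries had a log2 fold change above 0, with a median of 0.34, 0 called and 1 at an unadjusted p under 0.05. That one was miR-375-y, a form of miR-375, which is known from endocrine and exocrine secretory cells. It stood at 19602, 18564 and 26769 CPM at 12 months and at 30407, 33145 and 28138 CPM at 24 months, without overlap, and differed by 0.50 on the log2 scale (SE 0.19; edgeR adjusted p = 0.799). chi-miR-148b-3p stood at 1365, 1204 and 920.1 CPM against 1101, 2004 and 2185 CPM, and miR-152-y, of the same seed family, at 1827, 1758 and 1773 CPM against 1691, 1811 and 2434 CPM, both overlapping. miR-148-y, also of that seed, stood at 1538, 3143 and 1565 CPM against 1854, 3758 and 3541 CPM, overlapping (log2 difference 0.55, SE 0.37). It was high in 12-month 4, 24-month 3 and 24-month 5, a split described further on, and gave 0.24 with that split as a covariate. The gland list took 14.4, 16.6 and 17.0% of unscaled counts at 12 months and 17.6, 18.1 and 17.1% at 24 months, without overlap (exact permutation p = 0.1; adjusted p = 0.357). The gap between 12-month 5 and 24-month 5 was small.

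The epithelial miRNAs, with the miR-200 family, miR-205, miR-203 and the miR-183 cluster, were the evenest large list. Of 22 tested entries 18 had an interval within 2-fold, 0 were called and 0 had an unadjusted p under 0.05. The median log2 fold change was 0.12, with 19 above 0. miR-205-x, known from stratified and basal epithelium, stood at 4670, 5996 and 5562 CPM against 4660, 5879 and 5595 CPM, a log2 difference of -0.01. chi-miR-182, of the miR-183 cluster, gave 0.01, and chi-miR-200b gave 0.06. The list took 10.9 ± 0.823% of unscaled counts at 12 months and 11.4 ± 0.639% at 24 months, so markers of the epithelium that the labelled tissue is made of were abundant in both.

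Because the libraries were made from whole gland, fewer cells of a type and less miRNA per cell cannot be told apart. Of the mesenchymal list, 14 of 19 tested entries had a log2 fold change below 0, with a median of -0.23, 0 called and 12 within 2-fold. Goat-named entries of miR-199 repeated 1 value of -0.23 for the 3p arm and 1 of -0.19 for the 5p arm, so the counts and the median hold repeats. The 5 entries above 0 all had family names from elsewhere. The list's median was -0.02 without 12-month 3. Its share of unscaled counts was 9.04, 6.91 and 8.50% at 12 months and 6.51, 6.82 and 6.56% at 24 months, without overlap (exact permutation p = 0.1; adjusted p = 0.357), and 12-month 4 stood beside the 24-month goats. chi-miR-143-3p, from smooth muscle and fibroblasts, stood at 52957, 33148 and 56099 CPM against 42240, 38620 and 38279 CPM. chi-miR-199a-5p stood at 9836, 7792 and 5436 CPM against 4514, 7526 and 6852 CPM, overlapping.

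The endothelial list, miR-126 and its partner arm, held 4 tested entries, all 4 within 2-fold and 0 called, with a median of -0.13. chi-miR-126-3p, which supports vessel integrity, stood at 4710, 3239 and 3947 CPM against 3601, 3245 and 3729 CPM. Its ages overlapped. The list's share of unscaled counts was 0.939, 0.781 and 0.864% at 12 months and 0.693, 0.731 and 0.748% at 24 months, without overlap (exact permutation p = 0.1; adjusted p = 0.357). Its median was -0.04 without 24-month 2.

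Leukocyte miRNAs took 0.652 ± 0.0551% of unscaled counts at 12 months and 0.527 ± 0.0783% at 24 months (exact permutation p = 0.2; adjusted p = 0.556). The list held 14 tested entries with a median of -0.04, 7 above and 7 below 0, 0 called and 8 within 2-fold. miR-142-x, a form of the pan-leukocyte miR-142, stood at 1136, 1133 and 1104 CPM at 12 months and at 1150, 849.5 and 1031 CPM at 24 months. chi-miR-342-3p, of lymphoid cells, stood at 3406, 2486 and 2671 CPM against 3103, 2568 and 2086 CPM, and chi-miR-146a, induced by inflammatory signalling, at 1460, 938.9 and 1509 CPM against 1235, 798.3 and 1115 CPM. The ages overlapped in all 3. chi-miR-223-3p, of neutrophils and monocytes, was at 7.15, 14.5 and 0.652 CPM against 2.99, 2.18 and 7.92 CPM.

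A list of miRNAs tied to immune activation and ageing in glands (miR-146, miR-155, miR-21, miR-34 and miR-223) held 16 tested entries, 12 below 0 with a median of -0.38, and 0 called. The median was -0.19 without 12-month 4, in which its members miR-146-x and miR-21-y stood far above the other adult goats. chi-miR-21-5p, raised in inflammation and fibrosis in other tissues, stood at 11743, 6869 and 6020 CPM against 6973, 6472 and 10144 CPM, and 1 goat of each age was high. chi-miR-34c-5p, a p53 target, was at 73.4, 26.5 and 15.9 CPM against 8.97, 26.5 and 12.2 CPM, with 12-month 3 high. The miR-34 list as a whole held 5 tested entries with a median of -0.17 and 0 called.

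The miR-29 and miR-21 list held 11 tested entries with a median of 0.11, 0 called and 2 at an unadjusted p under 0.05. miR-29-y, of the family that represses collagens, is a longer form of chi-miR-29a-3p, with 23 bases that begin with all 21 of the latter. It stood at 929.3, 1147 and 965.2 CPM at 12 months and at 1294, 1437 and 1447 CPM at 24 months, without overlap (log2 difference 0.46, SE 0.18; edgeR adjusted p = 0.799). The more abundant chi-miR-29a-3p itself overlapped at 4647, 3456 and 4249 CPM against 4596, 3755 and 4945 CPM. The miR-17-92 list, tied to proliferation, held 28 tested entries with a median of 0.05 and 0 called, and chi-miR-92a-3p gave -0.26. The miR-15/16 list, brakes of the cell cycle, held 23 with a median of 0.10 and 0 called. Its member chi-miR-424-5p stood at 223.7, 261.5 and 208.7 CPM against 314.9, 453.8 and 296.3 CPM, without overlap (log2 difference 0.62, SE 0.24; edgeR adjusted p = 0.799).

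The imprinted DLK1-DIO3 region, a large miRNA cluster that is most active before birth, held 78 tested entries. 50 were below 0, the median was -0.14, 0 were called and 1 had an unadjusted p under 0.05. chi-miR-411a-5p of this cluster stood at 1417, 1256 and 1374 CPM against 1842, 2142 and 1451 CPM, without overlap and with a log2 difference of 0.43 (SE 0.20; edgeR adjusted p = 0.858). The other leading members chi-miR-136-3p, chi-miR-409-5p and chi-miR-494 gave -0.17, -0.45 and -0.002, with overlapping ages. The miR-30 list held 13 with a median of 0.13, miR-181 held 6 with a median of 0.05, the Hox list held 5 with a median of -0.03, the neural list held 9 with a median of -0.10 and the oxygen list, miR-210, held 3 with a median of -0.09. None of their members was called. The miR-17-92 and miR-181 lists took a lower share of unscaled counts at 24 months (0.810 against 0.722% and 0.560 against 0.468%, without overlap; exact permutation p = 0.1 and adjusted p = 0.357 for each), although their median log2 fold changes lay above 0. Those medians were -0.04 for both when libraries were scaled by size alone. The most abundant member of each list, chi-miR-92a-3p and miR-181-x, gave -0.26 and -0.22, with TMM-scaled levels that overlapped between the ages. chi-miR-30e-5p stood at 16687, 30829 and 19570 CPM against 19826, 32172 and 16933 CPM, high in 1 goat of each age.

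**Figure D3:**
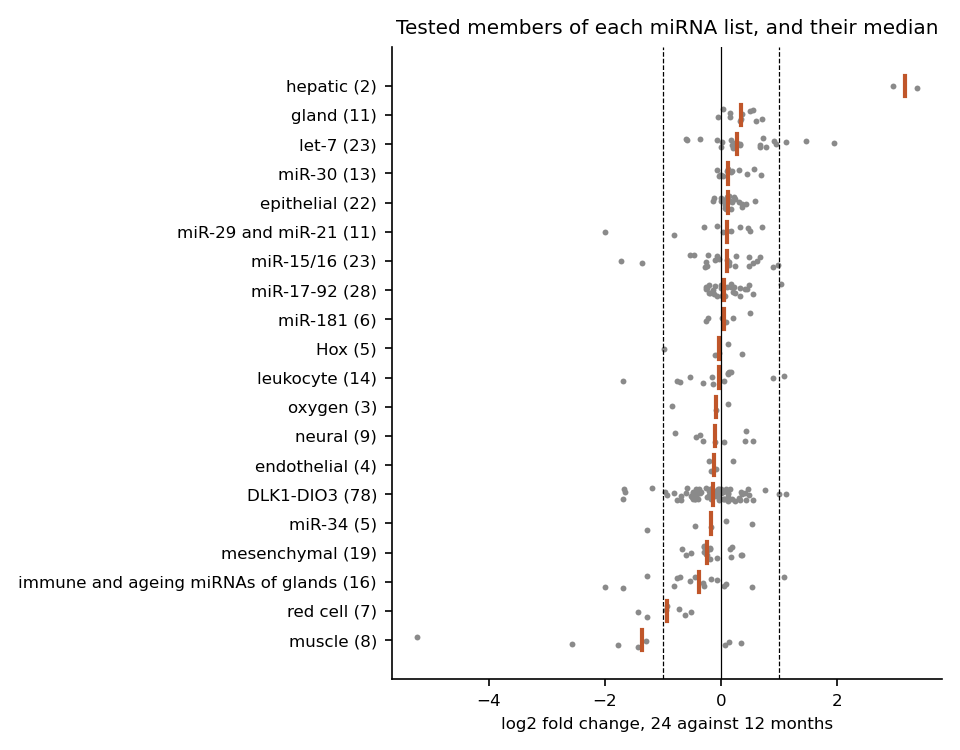
Log2 fold change (24 against 12 months, x axis) of the tested members of each miRNA list (grey points, number in brackets) and the list's median (orange bar), with dashed lines at 2-fold. Most medians lie close to 0, and muscle, red cell and hepatic lie furthest out.

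The muscle, red cell and hepatic lists had the largest medians, and each moved by over 1.5 times without 1 library. The muscle list held 8 tested entries, 5 below and 3 above 0, with a median of -1.36, which was 0.42 without 12-month 4. chi-miR-206, specific to skeletal muscle, stood at 9.94, 808.8 and 9.20 CPM at 12 months and at 5.32, 10.6 and 5.97 CPM at 24 months. chi-miR-1, of skeletal and cardiac muscle, stood at 122.4, 795.5 and 83.8 CPM against 191.2, 98.8 and 117.3 CPM. Both were high in 12-month 4 alone. The 3 entries above 0 were forms of miR-499. Of these, chi-miR-499-5p stood at 60.7, 84.5 and 75.3 CPM against 107.0, 112.5 and 61.3 CPM, without such a peak. Whether neighbouring muscle entered the tissue piece of 12-month 4 was not tested.

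The red cell list, miR-144, miR-451 and miR-486, held 7 tested entries, all 7 below 0, with a median of -0.94 that was -0.27 without 12-month 4. chi-miR-144-3p stood at 317.9, 722.1 and 119.5 CPM against 157.2, 165.4 and 110.3 CPM, and chi-miR-451-5p, which matures in red cell precursors, at 655.5, 657.5 and 139.5 CPM against 272.0, 194.2 and 288.9 CPM. 2 of the 3 12-month goats were high, 12-month 5 was not, and the ages overlapped. The amount of blood in the tissue was not tested. The hepatic list, miR-122, held 2 tested entries with a median of 3.17, which was 0.48 without 24-month 3. chi-miR-122, specific to liver, stood at 27.1, 68.2 and 112.0 CPM against 219.02, 1387 and 15.5 CPM.

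Other low-level entries also followed single libraries. Entries with names known from fish (6 names, chosen after their values were seen) summed to 278.2 unscaled CPM in 12-month 4, to 49.9 in 12-month 3 and to 9.45 to 13.9 in the other adult goats. They also reached 410.1 in 1-month 2, outside the comparison. The 2 entries DESeq2 called, miR-462-x and miR-7132-x, belong to them, at 149, 634 and 46 counts against 37, 9 and 15, and at 52, 368 and 21 counts against 16, 6 and 9. Without 12-month 4 their log2 differences were -2.41 and -1.91 in edgeR, against -3.84 and -3.87 with it. Names known from rodents outside the X-linked testis cluster summed to 124.5 unscaled CPM in 12-month 5 and 27.8 in 24-month 2, and names of that cluster to 32.3 in 12-month 3. The origin of these reads was not tested.

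Another set of entries, noticed after the values were seen, split the goats across the ages. miR-8-y, which differs from chi-miR-141 by T1G and T11A over its 21 bases, stood at 11.2, 127.7 and 13.2 unscaled CPM at 12 months and at 10.9, 159.3 and 147.3 at 24 months. miR-98-x, which differs from chi-let-7a-5p by G4C and G11C, stood at 13.5, 93.3 and 13.3 against 16.2, 117.1 and 168.4, and let-7-x, which begins with the whole of chi-let-7b-5p and runs on for 2 bases, at 1127, 2150 and 981.5 against 1218, 2889 and 3299. 12-month 4, 24-month 3 and 24-month 5 were high in all 3, and 12-month 3, 12-month 5 and 24-month 2 were low, with no goat between. miR-148-y of the gland list and chi-let-7a-3p divided the goats in the same way. The labels name no batch. Each side of the split holds a single goat of 1 age, 24-month 2 among the low and 12-month 4 among the high, so no test was made within a side. chi-let-7b-5p stood at 15537 and 15301 CPM in the low goats of 12 months and at 22465 CPM in 24-month 2, and at 16645 CPM in 12-month 4 and 26801 and 26524 CPM in the high goats of 24 months. With the split as a covariate edgeR called 0 of 810 entries, and 40 had an unadjusted p under 0.05.

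**Figure D4:**
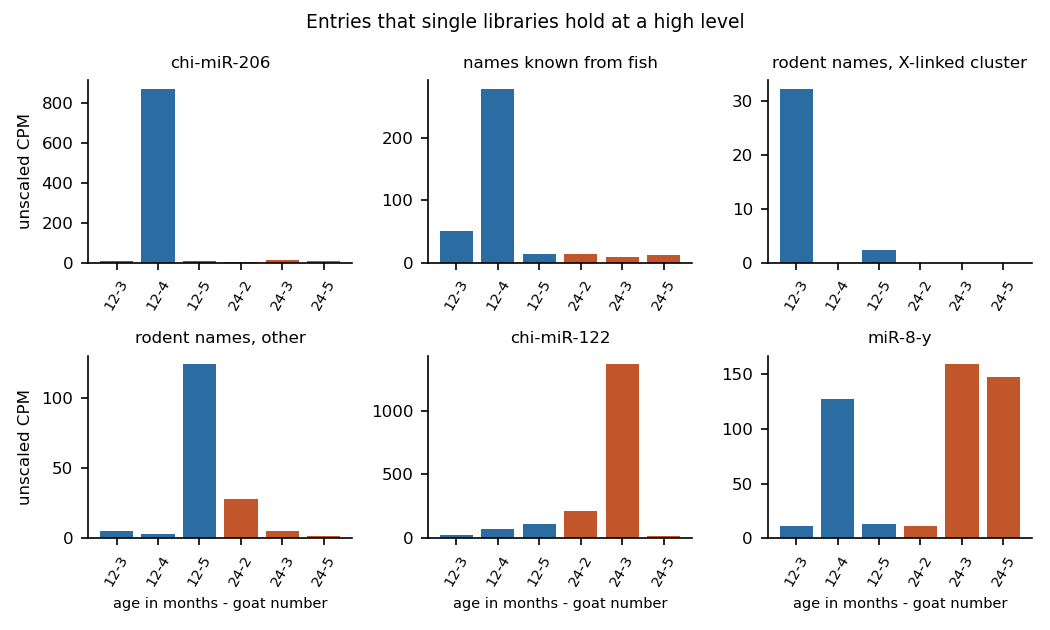
Unscaled CPM (y axes from 0, each on its own scale) of 6 entries or groups of entries in the 6 adult goats, blue for 12 months and orange for 24 months. 5 of the panels show 1 leading goat, 12-month 3, 4 or 5 or 24-month 3, and miR-8-y is high in 3 goats of both ages.

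Short entries, of at most 19 bases, took a lower share at 24 months. It was 0.794, 1.11 and 0.872% of unscaled counts at 12 months and 0.728, 0.590 and 0.419% at 24 months, without overlap (exact permutation p = 0.1; adjusted p = 0.357). miR-1260-x, 18 bases long, stood at 675.1, 750.1 and 726.2 CPM against 499.6, 233.2 and 193.3 CPM (log2 difference -1.22, SE 0.36; edgeR adjusted p = 0.418). It was called by edgeR with no filter on low counts (adjusted p = 0.00749) and with the replicate block (adjusted p = 0.0031). That block leaves 1 residual degree of freedom, and age and the miR-8-y split cannot be told apart in it. The log2 difference of miR-1260-x was -0.49 among the goats low in miR-8-y and -1.81 among the high ones, each with a single goat of 1 age. miR-2478-y, also of 18 bases, stood at 1913, 2736 and 2641 CPM against 1871, 1494 and 1122 CPM (log2 difference -0.70, SE 0.25; edgeR adjusted p = 0.728). Of the 23 such entries that end in CCA, the end of every mature tRNA, 16 were tested, and all 16 had a log2 fold change below 0 with a median of -0.62 and 0 called. This set was chosen after the values were seen, and whether its reads come from tRNA was not tested.

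Of the remaining entries with small p-values, miR-365-y stood at 7.88, 9.72 and 12.5 CPM against 23.8, 27.9 and 17.0 CPM, without overlap (log2 difference 1.19, SE 0.32; edgeR adjusted p = 0.332). The goat-named chi-miR-365-3p, of the same seed, gave a log2 difference of only 0.19 in the fit of all 9 libraries, where miR-365-y gave 1.16. miR-185-x stood at 447.2, 595.4 and 504.9 CPM against 668.9, 782.3 and 824.9 CPM, chi-miR-193b-3p at 150.9, 194.97 and 207.7 CPM against 269.7, 231.3 and 410.3 CPM, and chi-miR-30a-3p at 397.9, 412.2 and 403.3 CPM against 458.2, 705.9 and 624.3 CPM. None of the 3 overlapped between the ages and none passed, with an edgeR adjusted p of 0.776 for miR-185-x and 0.799 for the others.

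Reads were also summed over shared seeds. Of 508 seed families edgeR called 0 (0%), with 22 at an unadjusted p under 0.05, a smallest adjusted p of 0.883, and 218 within 2-fold. The lowest p belonged to a seed shared by 23 entries and led by a candidate, which summed to 24.3, 23.1 and 36.0 CPM at 12 months and to 55.2, 62.3 and 90.0 CPM at 24 months (log2 difference 1.31). The seed of miR-1260-x followed with -1.22, and that of miR-1895-y, below 3 CPM in every goat, with -2.18.

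A hairpin yields a 5p and a 3p miRNA, and of 194 pairs with both arms counted limma called 0 ratios (0%), with 13 at an unadjusted p under 0.05. The same arm led in all 6 goats in 171 of 194 pairs. The smallest p was that of miR-365, whose log2 ratio of 5p to 3p was -2.04, -2.85 and -2.57 at 12 months and -4.19, -4.42 and -3.60 at 24 months (limma adjusted p = 0.385), resting on 11 to 25 counts of the 5p arm. The 3p arm in this ratio was miR-365-y, not chi-miR-365-3p. The next were miR-154, chi-miR-485, chi-let-7b and miR-411, whose 5p to 3p ratios were higher at 24 months by 1.37, 1.68, 1.13 and 1.06 on the log2 scale, with adjusted p of 0.615 for miR-154 and 0.714 for the others. The let-7b ratio was 5.40, 5.10 and 5.06 at 12 months and 5.40, 6.61 and 6.94 at 24 months, high in 24-month 3 and 24-month 5. Its 3p arm had 3031, 4654 and 5612 counts against 5677, 2516 and 1989.

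The share of counts that would have to move between entries to turn one library into another was 7.48 to 11.2% within 12 months (3 pairs), 9.36 to 11.3% within 24 months (3 pairs) and 6.52 to 13.6% between the ages (9 pairs). The 2 closest pairs joined goats of different ages, 12-month 4 with 24-month 3 at 6.52% and 12-month 5 with 24-month 2 at 7.09%. The median standard deviation of log2 CPM within an age, over the 444 entries at 10 CPM or more, was 0.28 at 12 months and 0.35 at 24 months.

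The step from 1 to 12 months gives a scale for the later one, in a fit of all 9 libraries over 937 entries. There edgeR called 180 entries (19.2%) for 12 months against 1 month, 56 higher and the others lower, and 0 (0%) for 24 against 12 months. The median absolute log2 fold change was 1.00 for the first step and 0.32 for the second. Both steps share the 12-month goats, and no test of the difference between them was made. 1-month 2 stood apart from the other 1-month goats, with chi-miR-148a-3p at 71277, 4194 and 51243 and chi-miR-200a at 17580, 950.6 and 13082 unscaled CPM in 1-month 1, 2 and 3. Without it the calls were 218 of 967 (22.5%) and 0. miR-142-x stood at 22475, 97592 and 37964 unscaled CPM at 1 month, at 1131, 1218 and 1123 at 12 months and at 1139, 835.6 and 971.2 at 24 months. chi-miR-141 stood at 7813, 1513 and 5809 unscaled CPM at 1 month, at 21692, 27808 and 24607 at 12 months and at 26293, 29842 and 22081 at 24 months.

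**Figure D5:**
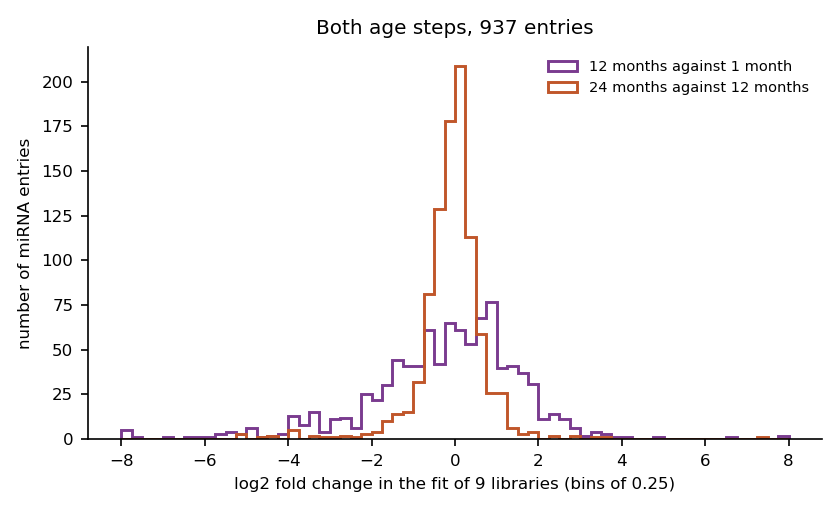
Number of miRNA entries (y axis) by log2 fold change (x axis, bins of 0.25, values past the ends put in the end bins) for 12 months against 1 month (purple) and 24 months against 12 months (orange), from the fit of 9 libraries over 937 entries. The later step is narrow around 0, with a median absolute change of 0.32 against 1.00, and both share the 12-month goats.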

How the data were processed

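The authors deposited raw read counts per mature miRNA entry in 1 table with the sequence of each entry, per the file headers. Per the submitters' processing notes, FastQC and Bowtie were used, and no version or role is recorded. Neither the genome build nor the miRNA database is given in the sources used here. The 6 adult libraries were fitted with edgeR 4.0.16 in R 4.3.3 (minimum count 10, minimum total 15, TMM scaling, the robust form of its quasi-likelihood test, with 4 degrees of freedom left), with Benjamini-Hochberg adjustment at 0.05 over all entries tested. Intervals of 95% came from the fitted means and moderated dispersions. limma 3.58.1 (voom for entries, and arm ratios as log2 with a pseudocount of 1) and DESeq2 1.42.0 were alternatives. Seed families were sums of counts over shared bases 2 to 8. Per-library shares were compared by exact permutation tests, which cannot go below p = 0.1 with 3 goats against 3. The scripts were tested on simulated data.

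The labels say that each library came from its own goat, so p-values measure the spread between goats. The groups share the replicate numbers 3 and 5, but same-numbered libraries did not deviate together (correlations of -0.26 and -0.22), and the numbers were not taken as pairs. No 2 libraries agreed within sampling noise.

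The comparison, the miRNA lists and the naming rule were chosen with earlier results of these data known. The names are the 15 known entries with the smallest p (no entry qualified by adjusted p) at 10 CPM or more in 1 age, the 10 most abundant, up to 4 leading members of each list, the 6 most and 6 least variable known entries at 100 CPM or more, and the 3 seed families and 5 arm ratios with the smallest p. chi-let-7i-5p, chi-miR-148b-3p, chi-miR-182, miR-205-x, chi-miR-223-3p, chi-let-7c-5p, chi-miR-127-3p, chi-miR-365-3p, chi-miR-381, chi-miR-497-3p, miR-802-x, miR-1338-y, miR-8-y, miR-98-x and let-7-x fall outside the rule and were added after their values were seen.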

Additional observations from a re-analysis of the deposited data

How the results depend on the processing

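edgeR called 0 entries with all 9 libraries in the fit, with each of 3 other scalings, with a floor of 10 CPM, without the robust step, on goat-named entries alone, on 1 entry per sequence and without any 1 library (0 to 0), and limma voom called 0. The exceptions were 3 entries with no filter on low counts, 2 with DESeq2, and 34 with the replicate block, which leaves 1 residual degree of freedom. The block compares 12-month 3 with 24-month 3 and 12-month 5 with 24-month 5, and in both pairs the 24-month goat is high in miR-8-y and the 12-month goat low, so age and that split cannot be told apart there. Seed families gave 2 calls with DESeq2, 4 with no filter, 9 with the replicate block and 0 to 1 without 1 library. The 1 was the miR-1260-x seed without 24-month 2 (edgeR adjusted p = 0.0381). Arm ratios gave 5 with the replicate block and 0 to 1 without 1 library, chi-miR-485 without 24-month 2 (limma adjusted p = 0.0195). The share of entries with an interval within 2-fold was 40%, and was 10.99% with all 9 libraries, 18.9% with no filter, 12.5% with the replicate block, 64.0% on goat-named entries, 24.7 to 30.9% without 1 library and 20.9% without 12-month 4 and 24-month 3 together (the biological coefficient of variation was 0.53 in the fit of 9 libraries and 0.41 in that of 6). That pair, the miR-8-y split, the name groups and the fit without 1-month 2 were chosen after seeing the data.

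List medians that moved by more than the median standard error of their members were, under the replicate block, -0.072 for red cell, 0.054 for muscle and 0.38 for miR-17-92. Without 1 library they ran from -1.31 to -0.27 for red cell, from -1.93 to 0.42 for muscle and from 0.48 to 3.95 for hepatic. Without 12-month 4 and 24-month 3 they were 0.32 for muscle and 0.49 for hepatic, and limma voom gave 1.45 for hepatic. With no filter miR-34 gave -0.98 and Hox -0.65, and with a floor of 10 CPM miR-34 gave -1.27. As a share of goat-named counts the miR-181 difference was 0.00413 points. Leaving out 1 library also turned the sign of 8 small medians, whose furthest such values were: leukocyte 0.06 (without 12-month 3), DLK1-DIO3 0.0073 and neural 0.04 (without 24-month 3), Hox 0.26 (without 24-month 2), miR-17-92 -0.09 and the miR-29 and miR-21 list -0.07 (without 12-month 5), miR-181 -0.04 (without 24-month 3) and oxygen 0.0031 (without 12-month 4). With library size alone the medians of miR-17-92 and miR-181 were -0.04 and -0.04, below 0, and with upper quartile scaling that of the leukocyte list was 0.01.

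For the 93 named entries, 118 of 1668 values under alternatives changed sign, none past the threshold, and 100 of these moved by no more than 1 standard error. The other 18 were these. Without 1 library the log2 differences ran from -0.49 (lowest) to 0.097 for chi-miR-145-5p, -0.68 to 0.078 for chi-miR-409-5p, -0.29 to 0.29 for chi-miR-21-5p and -0.56 to 0.39 for chi-miR-34a, each above 0 without 12-month 3. They ran from -1.06 to 0.17 for miR-451-x, -1.76 to 0.39 for chi-miR-1, -2.23 to 0.20 for chi-miR-133a-3p and -1.35 to 0.65 for miR-21-x, each above 0 without 12-month 4. They ran from -0.14 (without 24-month 3) to 0.46 for chi-miR-19b-3p and from -0.18 (without 24-month 5) to 0.17 for chi-miR-27b-3p. Under the replicate block miR-451-x gave 0.46, chi-miR-1 0.089, chi-miR-181c-5p -0.087 and miR-21-x 1.20. Without 12-month 4 and 24-month 3 together chi-miR-1 gave 0.53, chi-miR-133a-3p 0.40, chi-miR-9-5p -0.033 and miR-21-x 0.54. The cause was not tested. The low counts of rare entries and 3 goats per age limit the precision.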

Other observations

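4 entries had counts in all 3 goats of 24 months and in none of 12 months, and 11 the reverse, out of 1806 entries seen in any adult goat. The largest count among these 15 was 75, that of miR-1338-y in 12-month 4, so none was more than a rare entry.

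Some entries stood high in 1 adult goat by at least 2 on the scale of log2(unscaled CPM + 1) over the next adult goat. These miRNAs were chosen after their values were seen. There were 20 such entries in 12-month 4, 3 in 12-month 3, 2 in 12-month 5 and 3 in 24-month 3, and 0 in 24-month 2 and 24-month 5. In 12-month 4 they included chi-miR-497-3p at 32.4 unscaled CPM, with no count in any other goat of the series, and chi-miR-381 at 217.3 unscaled CPM against 20.1 to 41.2 in the other adult goats. In 24-month 3 miR-802-x, known from liver, stood at 9.35 unscaled CPM beside chi-miR-122.

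chi-miR-127-3p of the DLK1-DIO3 region stood at 72.0, 7.84 and 113.0 CPM at 12 months and at 45.3, 5.79 and 9.01 CPM at 24 months, low in the 3 goats that were high in miR-8-y.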
